A study of Arabidopsis thaliana with 24 samples.

Results

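The transcript response of cuticle-defective bdg-8 seedlings of Arabidopsis thaliana to extracellular ATP was measured by RNA sequencing. The 6 libraries that the labels give to the bdg-8 single mutant were used, out of 24 in the series: 3 from bdg-8 seedlings given 150 µM ATP for 30 min and 3 from bdg-8 seedlings given the mock treatment. The response was set beside that of the wild type Col-0 (3 ATP and 3 mock libraries) and that of p2k1-3 bdg-8 seedlings, which carry the bdg-8 allele together with the p2k1-3 allele of the ATP receptor gene (3 ATP and 3 mock libraries). The 6 libraries of the p2k1-3 single mutant entered the expression filter, the scaling, the estimate of the spread and the check of replicate 3, but no comparison. All libraries came from polyadenylated RNA of whole seedlings, with no agent other than ATP named. The labels used here give neither the age of the seedlings, nor the solution used as mock, nor the lesion in either allele, and they do not say whether replicates came from separate cultures, so p-values measure the spread between these samples only.

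Extracellular ATP is a danger signal that plant cells release when they are wounded or attacked. In Arabidopsis it is bound by the lectin receptor kinase P2K1 (also DORN1, listed in the gene table as LecRK-I.9), and binding is followed by calcium entry into the cytosol, an oxidative burst, activation of MAP kinases and transcription of defence and wound genes. BDG1 (BODYGUARD) encodes an α/β-hydrolase of the epidermis that is needed for an intact cuticle, the cutin and wax layer that seals the shoot. Mutants with a leaky cuticle are known for altered resistance to pathogens and for growth defects.

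The bdg-8 libraries held 27180729 to 31766326 reads in genes. In every one of the 8 groups of the series, the expression profile of replicate 3 lay between those of replicates 1 and 2. Described as a mixture, replicate 3 took a weight of 0.4 to 0.525 from replicate 1. Its median squared deviation from that mixture was 1.19 to 1.64 times the one that counting error alone would give. From replicate 1 or 2 alone it was 1.57 to 2.29 times. Described in the same way, replicates 1 and 2 took a weight of 0 from each other in every group. Why this is so was not tested. SE and p-values from fits with replicate 3 take it as independent of replicates 1 and 2, and would be too small if it were not. The main results are therefore given with and without replicate 3 of every group. Markers of green tissue (6 of 6), root hairs (5 of 5), root endodermis (7 of 7), epidermis (4 of 4), guard cells (4 of 4) and dividing cells (6 of 6) were all detected in both bdg-8 groups. The summed level of the 6 green-tissue markers was 30360 to 33410 counts scaled to a common library size (CPM, the usual normalized read count) in bdg-8 ATP libraries and 26250 to 34880 CPM in bdg-8 mock libraries.

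The BDG1 transcript itself (AT1G64670) was among the strongest differences between the genotypes. It stood at 116, 96.4 and 109 CPM in bdg-8 ATP libraries, against 16.1, 12.7 and 13.7 CPM in bdg-8 mock libraries. The groups were far apart, and the log2 fold change was 2.91 ± 0.07 (SE, n = 3 libraries per group, edgeR adjusted p = 1e-20). The p2k1-3 bdg-8 seedlings gave nearly the same values, 114, 110 and 112 CPM with ATP and 15.5, 14.8 and 15.7 CPM with mock. In Col-0 the ATP libraries (26.9, 24 and 27.1 CPM) and the mock libraries (24.8, 25.6 and 25.6 CPM) overlapped. The difference between the bdg-8 and Col-0 responses was 2.88 ± 0.10 log2 units (edgeR adjusted p = 2.5e-15, and 1.7e-06 without replicate 3), and no other called gene above the expression minimum used for naming (a mean log2 CPM of 1) had a larger positive difference. The genes next to BDG1 in the order of the identifiers, MGL (0.13 ± 0.13 log2) and AT1G64680 (−0.03 ± 0.07 log2), were not called in bdg-8. Since counts were made over whole genes, where on the BDG1 transcript the reads fell is not known.

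P2K1 (AT5G60300), for which bdg-8 carries no mutant allele by its label, rose with ATP in bdg-8. Its level was 35, 31.4 and 31.8 CPM in bdg-8 ATP libraries, against 25, 21.3 and 24.3 CPM in bdg-8 mock libraries. The groups did not overlap, with a log2 fold change of 0.48 ± 0.06 (edgeR adjusted p = 7.1e-07). The Col-0 change was 0.31 ± 0.06, and the difference of the bdg-8 and Col-0 changes, 0.16 ± 0.09 log2, did not pass the threshold (edgeR adjusted p = 0.34). In p2k1-3 bdg-8 seedlings P2K1 stood at 11.1, 10.8 and 11.3 CPM with ATP and 10.1, 10.6 and 11.1 CPM with mock, below every bdg-8 library, and the change was 0.06 ± 0.07. The difference from p2k1-3 bdg-8 passed the threshold with all replicates (0.42 ± 0.10 log2, edgeR adjusted p = 0.045) but not without replicate 3 (adjusted p = 0.99).

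**Figure D1:**
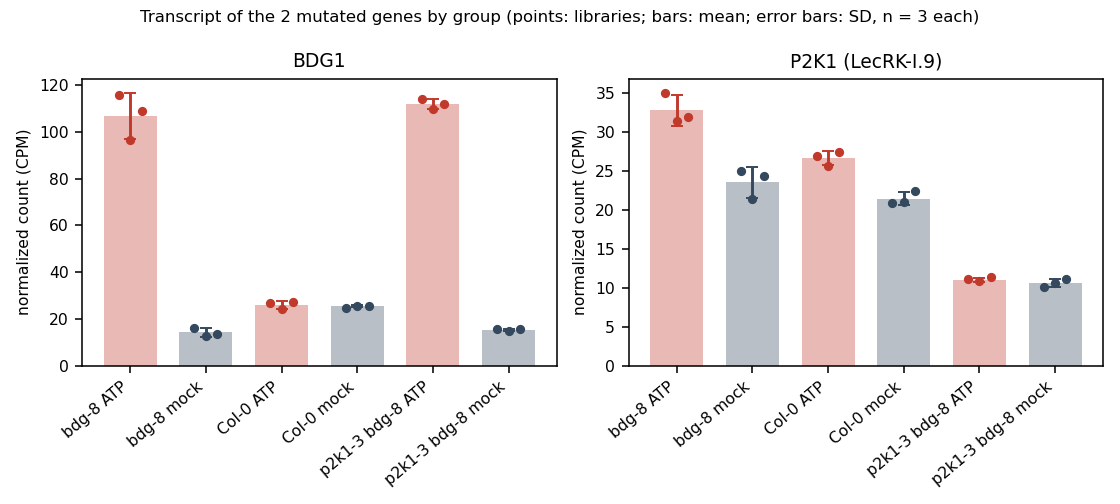
Normalized counts (CPM, vertical axes starting at 0) of BDG1 (left) and P2K1 (right) in the bdg-8, Col-0 and p2k1-3 bdg-8 groups. Points are libraries, bars are group means and error bars are SD (n = 3). BDG1 reached 96.4 to 116 CPM with ATP in both genotypes that carry bdg-8, against 24 to 27.1 CPM with ATP in Col-0.

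Across the transcriptome, ATP changed 7631 of 20995 genes tested in bdg-8 (36.3% called at an adjusted p under 0.05). Of these, 3916 rose (18.7%) and 3715 fell (17.7%). The rises were larger than the falls: 1254 genes rose at least 2-fold (5.97%) and 361 fell at least 2-fold (1.72%), while 199 rose and 6 fell at least 8-fold. The median log2 fold change of the called genes was 0.60 for rises and −0.36 for falls. The median over all genes tested was −0.02. Without replicate 3, 4848 of the same genes were called (23.1%), with 2874 higher (13.7%) and 1974 lower (9.4%), and 4808 of the 7631 kept their call and direction. Among the 2-fold changes, 1198 of the 1254 rises and 278 of the 361 falls were also called without replicate 3. The number of small falls depends on scaling: with upper-quartile factors in place of TMM factors the median of all genes shifted by −0.126 log2 units, and 2928 genes were called higher and 8923 lower.

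The 15 largest rises above that expression minimum included several transcripts that were close to absent in mock seedlings. AT1G33760, a DNA-binding protein of the AP2/ERF type, stood at 59.5, 56.4 and 54.3 CPM in bdg-8 ATP libraries, against 0.29, 0.278 and 0.0348 CPM in bdg-8 mock libraries. It had the largest fitted change of these genes, 8.10 ± 0.17 log2. Where mock libraries are near 0, the ± value is too small to be a full measure of error. For AT1G33760 it was 0.17 in bdg-8 and 0.19 in Col-0, but 0.59 for their difference. ERF13, an ethylene response factor, followed at 6.62 ± 0.16, CML37, a calmodulin-like calcium sensor, at 6.60 ± 0.31, and ZAT7, a zinc-finger repressor, at 6.29 ± 0.23. PHI-1, a phosphate-responsive cell wall protein related to EXORDIUM, was abundant after ATP. It had 455, 424 and 436 CPM in bdg-8 ATP libraries, against 9.04, 5.59 and 8.39 CPM in bdg-8 mock libraries, a log2 change of 5.83 ± 0.12. AT1G66090, a disease resistance protein of the TIR-NBS class, had 85.8, 80.8 and 80.5 CPM in bdg-8 ATP libraries, against 2.84, 0.973 and 1.67 CPM in bdg-8 mock libraries (5.47 ± 0.18 log2). The remaining members of this group were AT4G27654 (6.22), AT2G32200 (6.20), AT3G55840 (5.88, a Hs1pro-1 protein), AT4G29780 (5.72), AT3G44870 (5.72), AT1G07135 (5.48, a glycine-rich protein), AT1G76640 (5.43, a calcium-binding EF-hand protein), AT2G41640 (5.38, a glycosyltransferase of family 61) and JAZ7 (5.36, a jasmonate repressor), all as log2 fold changes. All 15 were also called without replicate 3.

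The 15 largest falls were smaller than the largest rises, and included genes known from growth, light and auxin response. PKS4, a phytochrome kinase substrate of phototropism, had 0.0974, 0.38 and 0.0744 CPM in bdg-8 ATP libraries, against 1.26, 1.36 and 1.25 CPM in bdg-8 mock libraries (−2.82 ± 0.36 log2). NCED4, a carotenoid cleavage dioxygenase, had 5.58, 8.63 and 6.06 CPM in bdg-8 ATP libraries, against 27.3, 47.9 and 40.5 CPM in bdg-8 mock libraries (−2.52 ± 0.22 log2). EXPA1, a wall-loosening expansin, was the most abundant of these genes. It had 34.5, 37.2 and 34.9 CPM in bdg-8 ATP libraries, against 156, 148 and 160 CPM in bdg-8 mock libraries (−2.13 ± 0.07 log2). WAG1, a kinase that regulates auxin efflux carriers, changed by −2.02 ± 0.13 log2, and CYP78A6, a cytochrome P450 of organ growth, by −2.21 ± 0.17. The SAUR genes AT1G75580 (−2.63 ± 0.17) and AT4G38860 (−1.97 ± 0.11) belonged to this group too. The others were AT5G24200 (−2.39), AT5G20790 (−2.15), TRM24 (−2.09), AT1G12805 (−2.04), AIG1 (−2.00), AT5G03230 (−1.97), P1R1 (−1.97) and AT2G43870 (−1.97). All 15 falls were also called without replicate 3.

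**Figure D2:**
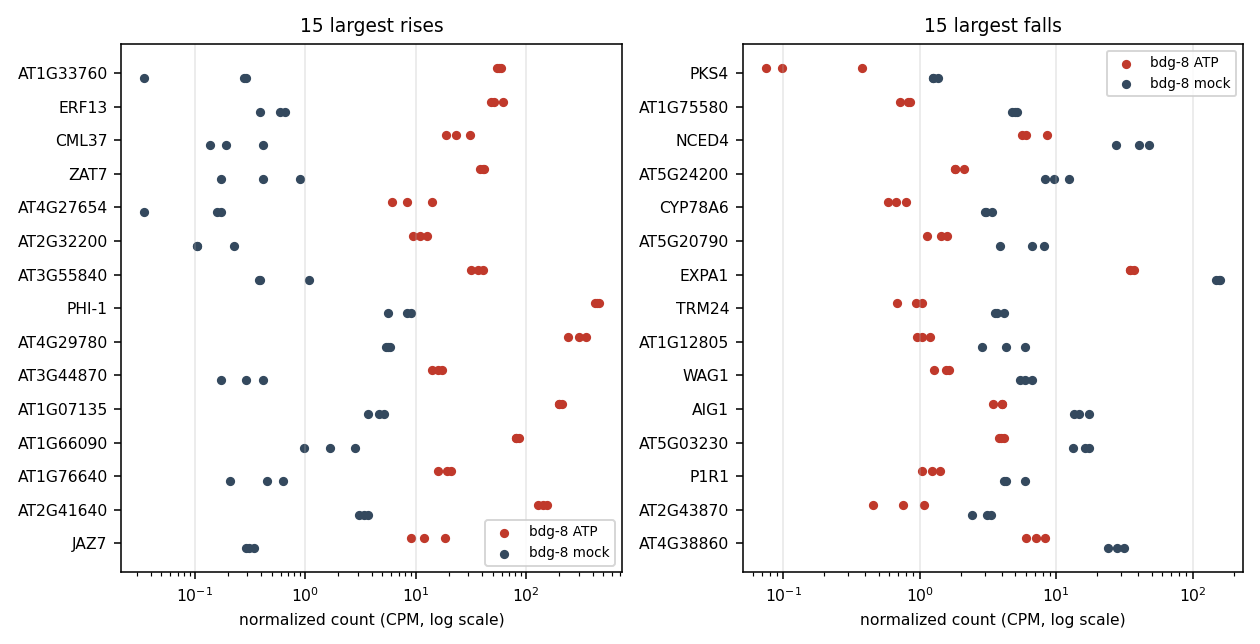
Normalized counts (CPM, log scale) of the 15 largest rises (left) and the 15 largest falls (right) in bdg-8 seedlings. Each point is 1 library, red for bdg-8 ATP and dark blue for bdg-8 mock. The 3 libraries of each treatment lie apart from those of the other for each gene, as the selection required, and the separation is wider for the rises.

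Promoter sequences of the 2 largest rises that hold a CGCGTT element are shown, because this element, the rapid stress response element bound by CAMTA calmodulin-binding transcription activators, stood before a larger share of the genes that rose than of all genes tested. The 250 bases before the annotated start were read from the RefSeq TAIR10.1 genome, with gene positions from its annotation. The gene identifiers of the counts were matched to that annotation, and the build used for counting was not given in the sources used here. Capitals mark CGCG and CGCGTT and the W-box core TTGAC, which WRKY factors bind, on either strand (AACGCG and GTCAA on the other strand). PHI-1 lies on the plus strand and the stretch is chr1:12851733-12851982. AT1G66090 lies on the plus strand and the stretch is chr1:24601783-24602032.
PHI-1: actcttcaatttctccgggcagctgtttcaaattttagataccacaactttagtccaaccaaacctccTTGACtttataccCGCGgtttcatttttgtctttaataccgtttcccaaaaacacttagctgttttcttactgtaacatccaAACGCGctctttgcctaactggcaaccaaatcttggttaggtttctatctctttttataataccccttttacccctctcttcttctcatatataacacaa
AT1G66090: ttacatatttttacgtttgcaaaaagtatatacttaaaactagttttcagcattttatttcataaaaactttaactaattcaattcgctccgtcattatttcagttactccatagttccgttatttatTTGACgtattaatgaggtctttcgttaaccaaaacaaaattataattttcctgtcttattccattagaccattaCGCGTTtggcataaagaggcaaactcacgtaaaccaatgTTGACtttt

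In the 250 bases before the start, CGCGTT stood in 10.9% of the 1254 genes that rose at least 2-fold, in 0.8% of the 361 genes that fell at least 2-fold, and in 2.8% of all 20886 genes tested that have a promoter in the annotation. Its core CGCG, which overlaps it, stood in 22.6% of the rises, 5.3% of the falls and 10.7% of all. The W-box core TTGAC stood in 54.8% of the rises, 39.1% of the falls and 45.1% of all. The G box CACGTG, bound by bHLH and bZIP factors, differed little (8.2% of rises, 8.0% of falls, 7.2% of all), and so did the GCC box GCCGCC of ERF factors (2.6% of rises, 1.4% of falls, 2.0% of all). For elements known from genes of growth and translation, AAACCCTA (telo box) stood in 1.5% of the rises, 2.5% of the falls (9 promoters) and 3.6% of all, and TGGGCC (site II element) in 6.7% of the rises, 4.2% of the falls and 16.0% of all. Among all 3715 genes called lower, with no fold limit, the shares were 3.6% and 15.3%, close to those of all genes. None of these shares was tested. Each motif was searched on both strands, and a match describes letters in the window, not a bound site. Of the 15 largest rises, 2 had CGCGTT, 5 had CGCG and 12 had TTGAC.

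**Figure D3:**
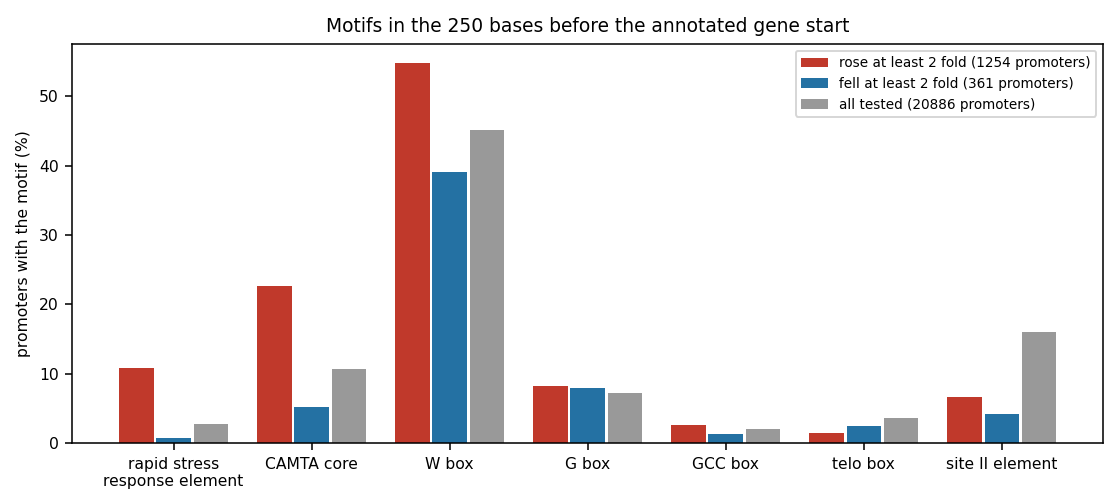
Share of promoters (250 bases before the annotated start, vertical axis in percent) that hold each motif on either strand, for genes that rose at least 2-fold in bdg-8 (red), fell at least 2-fold (blue) and all genes tested (grey). The rapid stress response element reached 10.9% before rises, against 2.8% before all genes, while the site II element stood at 6.7% and 16.0%.

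Calcium genes rose as a group. The gene lists here and below were chosen with earlier results of these data known. Their counts, medians and ranks therefore describe the lists and test nothing. Of 28 listed genes for calcium entry, pumps and sensors, all of them tested, 23 rose and 1 fell (22 and 0 without replicate 3), beside 18.7% higher and 17.7% lower among all genes tested. Their median log2 fold change was 1.21. CPK28, a calcium-dependent protein kinase that turns over the immune kinase BIK1, had 368, 350 and 357 CPM in bdg-8 ATP libraries, against 32.4, 27.5 and 31 CPM in bdg-8 mock libraries (3.56 ± 0.07 log2). TCH3, a touch-induced calmodulin-like protein, had 143, 155 and 137 CPM in bdg-8 ATP libraries, against 17.8, 9.52 and 13.6 CPM in bdg-8 mock libraries (3.40 ± 0.12 log2). The calmodulin-like sensors CML37 and AT1G76640 have been given above, and CML38 changed by 3.97 ± 0.15 and TCH2 by 3.18 ± 0.06. The single fall was ANNAT4, an annexin (−0.29 ± 0.07), which was not called without replicate 3. In the family of CML names, which shares members such as CML37 with the calcium list, 10 of 13 tested genes rose and none fell (median 1.23). The response was called more positive in bdg-8 than in Col-0 for 11 of the 28 genes and more negative for none, CPK28 among them (difference 0.92 ± 0.09 log2, edgeR adjusted p = 4.4e-07, and 0.0068 without replicate 3), beside 5.76% of all genes more positive and 2.15% more negative. CML37 (difference 1.44 ± 0.89) and CML38 (0.13 ± 0.25) were not called in that comparison.

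Receptors and early kinases also rose. Of 27 listed genes, all tested, 24 rose and none fell (22 and 0 without replicate 3), beside 18.7% higher and 17.7% lower among all genes. The median was 0.89 log2 (0.42 in Col-0 and 1.25 in p2k1-3 bdg-8). MPK3, a MAP kinase of immune signalling, had 486, 474 and 484 CPM in bdg-8 ATP libraries, against 56.8, 57.2 and 57.8 CPM in bdg-8 mock libraries (3.07 ± 0.06 log2). RBOHD, the NADPH oxidase of the oxidative burst, had 398, 358 and 374 CPM in bdg-8 ATP libraries, against 74.6, 74 and 79.7 CPM in bdg-8 mock libraries (2.31 ± 0.07 log2). Both sets of libraries were far apart. SOBIR1, the co-receptor of receptor-like proteins, changed by 2.61 ± 0.09, MKK9, a MAP kinase kinase, by 2.49 ± 0.16, LYK5, the chitin receptor, by 2.42 ± 0.11 and PEPR2, a receptor of Pep danger peptides, by 2.07 ± 0.10. The 3 genes without a call were the kinases PBL1 (−0.07), MPK6 (0.03) and MPK4 (0.01). The response was called more positive than in Col-0 for 14 of the 27 genes and more negative for none. The shares of all genes were 5.76% and 2.15%. For MPK3 the difference was 0.87 ± 0.09 log2 (edgeR adjusted p = 2.5e-07, and 0.0053 without replicate 3), and for RBOHD it was 0.58 ± 0.09 (adjusted p = 0.00013, and 0.044 without replicate 3). In p2k1-3 bdg-8, MPK3 changed by 2.82 ± 0.06 and RBOHD by 2.07 ± 0.07, with no called difference from bdg-8. Of the 27 genes, 2 were called more positive in bdg-8 than in p2k1-3 bdg-8 and none more negative, beside 0.486% and 0.152% of all genes. FRK1, a flagellin-induced receptor kinase, had 16.2, 12.9 and 16.4 CPM in bdg-8 ATP libraries, against 6.88, 4.97 and 6.44 CPM in bdg-8 mock libraries (1.32 ± 0.39 log2), and −0.53 ± 0.41 log2 in Col-0. Its difference of 1.85 ± 0.56 log2 was called with all replicates (edgeR adjusted p = 0.043) and not without replicate 3 (adjusted p = 0.5). The FRK1 rise in bdg-8 was not called without replicate 3 either (edgeR adjusted p = 0.15). In p2k1-3 bdg-8 FRK1 changed by 1.97 ± 0.34 log2, with no called difference from bdg-8. Among the genes with CRK names, 20 of 40 tested rose and 5 fell (median 0.45), led by the cysteine-rich receptor kinases CRK31 (2.92 ± 0.29) and CRK10 (2.90 ± 0.10). That name also takes in CDPK-related kinases, a different family, such as CRK1 (−0.46 ± 0.06) and AT2G46700 (0.15 ± 0.06, not called).

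Genes that restrain immune signalling rose with those that carry it. All 7 listed brakes rose, with and without replicate 3 (median 1.62 log2), beside 18.7% higher among all genes. BAP1, a membrane protein that suppresses cell death, had 49.8, 31.6 and 40.4 CPM in bdg-8 ATP libraries, against 2.1, 1.39 and 1.84 CPM in bdg-8 mock libraries (4.51 ± 0.18 log2). The ubiquitin ligases PUB23 (3.05 ± 0.14) and PUB22 (1.62 ± 0.12) and the PP2C-type phosphatase AT2G30020 (2.02 ± 0.11) were called as well. Precursors of secreted danger peptides rose in 6 of the 7 that passed the filter on low counts, of 9 listed (median 1.80). PROPEP4 had 15.6, 15.2 and 14.2 CPM in bdg-8 ATP libraries, against 2.61, 2.47 and 3.24 CPM in bdg-8 mock libraries (2.43 ± 0.14 log2). PROPEP3 followed with 2.31 ± 0.20, PROPEP2 with 1.80 ± 0.33 and PROPEP1 with 1.65 ± 0.13. AT4G37290 rested on 77 reads in the bdg-8 ATP libraries and 3 in the bdg-8 mock libraries, a ratio of 25.2 with a 95% exact counting interval of 8.31 to 125.

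Transcription factors held many of the largest changes. Of 21 tested ERF and DREB factors (23 listed), 19 rose and 2 fell (17 and 2 without replicate 3), beside 18.7% higher and 17.7% lower among all genes. The list median was 2.35 log2, the highest of the 39 lists, which were chosen with earlier results of these data known. ERF6, a factor that MPK3 and MPK6 phosphorylate, had 160, 130 and 138 CPM in bdg-8 ATP libraries, against 4.42, 4.55 and 3.38 CPM in bdg-8 mock libraries (5.11 ± 0.19 log2). DREB26 had 187, 188 and 193 CPM in bdg-8 ATP libraries, against 10.8, 8.37 and 9.85 CPM in bdg-8 mock libraries (4.29 ± 0.09 log2). RRTF1, a redox-responsive factor, had 217 reads over the 3 bdg-8 ATP libraries and none over the 3 bdg-8 mock libraries. It was at least 71.1-fold higher with ATP, taking 3 reads over the mock group as the floor, and the list median was 2.35 also with RRTF1 at that bound. The falls were DREB1A, a cold-response factor (−1.30 ± 0.38), and ORA59, an integrator of jasmonate and ethylene (−0.80 ± 0.20, adjusted p = 0.05 in the edgeR fit without replicate 3). Of 25 zinc finger, MYB and NAC factors, 21 rose and 2 fell (median 1.77). STZ, a salt-tolerance zinc finger also called ZAT10, had 110, 80.9 and 89.6 CPM in bdg-8 ATP libraries, against 4.33, 3.58 and 4.38 CPM in bdg-8 mock libraries (4.51 ± 0.19 log2). RHL41 changed by 3.75 ± 0.20, MYB51, an activator of indole glucosinolate synthesis, by 3.50 ± 0.10 and MYB77 by 3.45 ± 0.09. Of 61 tested WRKY factors (71 listed), 27 rose and 11 fell (20 and 5 without replicate 3), with a median of 0.16. The falls were close to the 17.7% of all genes that fell. WRKY40, a repressor of defence genes, had 102, 77.1 and 89.4 CPM in bdg-8 ATP libraries, against 3.07, 2.29 and 2.64 CPM in bdg-8 mock libraries (5.06 ± 0.17 log2). WRKY33, an activator of camalexin synthesis, had 249, 214 and 245 CPM in bdg-8 ATP libraries, against 26.5, 19.7 and 22.5 CPM in bdg-8 mock libraries (3.36 ± 0.11 log2).

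**Figure D4:**
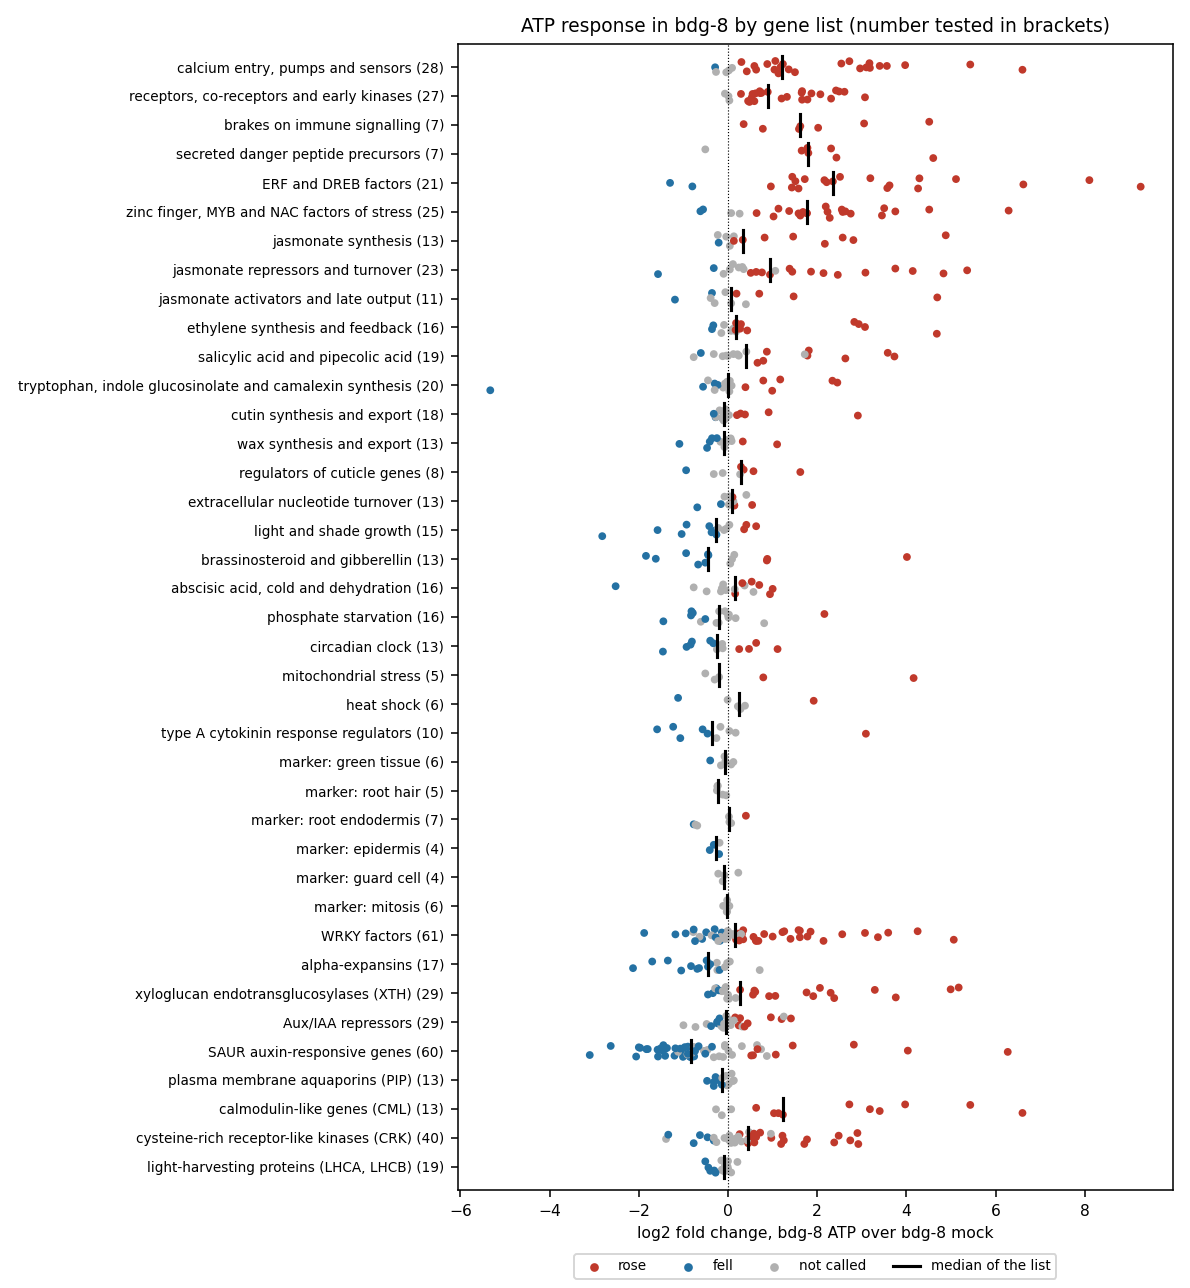
Log2 fold change (bdg-8 ATP over bdg-8 mock) of every tested member of 39 gene lists. Points are genes, red where they rose, blue where they fell and grey where they were not called, and black bars are list medians. ERF and DREB factors have the highest median (2.35) and SAUR genes the lowest (−0.83). The lists were chosen with earlier results of these data known.

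Among the jasmonate genes that could be tested, rises lay mainly at the steps of synthesis and repression. Jasmonates are wound hormones made from plastid lipids; lipoxygenases start the pathway, JAZ proteins block its transcription factors, and CYP94 enzymes remove the active hormone. Of 13 tested synthesis genes, 8 rose and 1 fell (median 0.33), beside 18.7% higher and 17.7% lower among all genes. LOX4, a lipoxygenase, had 223, 158 and 191 CPM in bdg-8 ATP libraries, against 7.84, 5.25 and 6.26 CPM in bdg-8 mock libraries (4.88 ± 0.15 log2). LOX3 had 134, 84 and 108 CPM in bdg-8 ATP libraries, against 16.2, 14.8 and 15.5 CPM in bdg-8 mock libraries (2.81 ± 0.11 log2). AOC3, an allene oxide cyclase, changed by 2.57 ± 0.09, while LOX2, the lipoxygenase of leaf plastids, was not called (0.04 ± 0.11), a member picked after its value was seen. Of 23 repressors and turnover genes, 14 rose and 2 fell (12 and 0 without replicate 3, median 0.94). JAZ7 had 18.3, 9.16 and 11.8 CPM in bdg-8 ATP libraries, against 0.29, 0.347 and 0.313 CPM in bdg-8 mock libraries (5.36 ± 0.32 log2). CYP94C1, a jasmonate-oxidising P450, had 89.5, 74 and 75.3 CPM in bdg-8 ATP libraries, against 2.9, 2.43 and 3.06 CPM in bdg-8 mock libraries (4.83 ± 0.14 log2). Further down were JAZ8 (4.14 ± 0.29), JAZ5 (3.75 ± 0.17) and JAZ1 (3.08 ± 0.10). The list named for activators and late output gave a mixed picture, with 4 of 11 tested genes higher and 2 lower (2 and 2 without replicate 3). Of its 12 listed genes, the activator MYC2 had a count of 0 in all 24 libraries and was not tested. The list had a median of 0.07, and of −0.05 with upper-quartile factors. Its members do not all activate jasmonate responses, so this is not a count of activators. GRX480, a glutaredoxin that links salicylic acid with jasmonate, changed by 4.69 ± 0.28 and AIB, a bHLH factor, by 1.47 ± 0.06, whereas MYC4, an activator of jasmonate genes, changed by −1.19 ± 0.07.

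Some of these jasmonate genes responded differently in bdg-8 and Col-0. The response was called more positive in bdg-8 for 3 of the 13 synthesis genes and 5 of the 23 repressor and turnover genes, and more negative for none of them. Among all genes, 5.76% were more positive and 2.15% more negative. Among the 11 genes of the activator and output list, 1 was more positive and 2 were more negative. LOX3 changed by 1.39 ± 0.12 log2 in Col-0, a difference of 1.43 ± 0.17 (edgeR adjusted p = 2.6e-06, and 0.011 without replicate 3). For CYP94C1 the difference was 1.47 ± 0.25 (adjusted p = 0.00028, and 0.045 without replicate 3). JAZ7 had a difference of 2.61 ± 0.77, called with all replicates (edgeR adjusted p = 0.035) and not without replicate 3 (adjusted p = 0.36). In p2k1-3 bdg-8 the changes were 2.59 ± 0.11 (LOX3), 4.59 ± 0.13 (CYP94C1) and 4.10 ± 0.28 (JAZ7), with no called difference from bdg-8. TAT3, a jasmonate-induced tyrosine aminotransferase, had a smaller fold change in bdg-8 and a higher level there with either treatment. It had 28.6, 22.6 and 27.3 CPM in bdg-8 ATP libraries, against 18.8, 13.8 and 15.8 CPM in bdg-8 mock libraries (0.70 ± 0.27 log2). Col-0 had 17, 12.3 and 14.6 CPM with ATP and 0.977, 1.07 and 0.721 CPM with mock, a change of 3.99 ± 0.44. The difference of −3.30 ± 0.55 log2 was called (edgeR adjusted p = 0.0002, and 0.085 without replicate 3). The TAT3 rise in bdg-8 itself was called with all replicates (edgeR adjusted p = 0.043) and not without replicate 3 (adjusted p = 0.37). FAMT, a methyltransferase of farnesoic acid, had 15.1, 12.5 and 13.9 CPM in bdg-8 ATP libraries, against 8.36, 3.09 and 5.85 CPM in bdg-8 mock libraries (1.26 ± 0.22 log2). In Col-0 it had 8.27, 7.89 and 8.43 CPM with ATP and 0.523, 0.444 and 0.408 CPM with mock, a change of 4.15 ± 0.35. Levels were not tested between the genotypes.

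Ethylene synthesis rose at its rate-limiting enzyme family and little elsewhere. ACC synthases make the ethylene precursor. ACS11 had 38.2, 39.2 and 36.9 CPM in bdg-8 ATP libraries, against 2, 1.04 and 1.36 CPM in bdg-8 mock libraries (4.68 ± 0.12 log2). ACS6, a target of MPK3 and MPK6, had 97.9, 82.2 and 85.1 CPM in bdg-8 ATP libraries, against 13.4, 11 and 10.3 CPM in bdg-8 mock libraries (2.93 ± 0.09 log2). ACS8 changed by 3.07 ± 0.27 and ACS7 by 2.83 ± 0.13. Of all 16 ethylene genes tested, 9 rose and 2 fell (6 and 1 without replicate 3, median 0.18), beside 18.7% higher and 17.7% lower among all genes. The next called members were EBF1, which removes EIN3 (0.43 ± 0.04), and EIN2, the central signalling protein (−0.36 ± 0.04).

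Salicylic acid genes rose at the regulators of synthesis, with 8 of 19 tested genes higher and 1 lower, both with and without replicate 3 (median 0.41). The shares among all genes were 18.7% higher and 17.7% lower. SARD1, a calmodulin-binding-like activator of salicylic acid synthesis, had 76.8, 74 and 73.6 CPM in bdg-8 ATP libraries, against 6.91, 4.38 and 5.6 CPM in bdg-8 mock libraries (3.73 ± 0.10 log2). CBP60G, its partner in that role, changed by 3.58 ± 0.15, NPR3, a salicylic acid receptor, by 2.63 ± 0.07, SAG101 by 1.81 ± 0.07 and PAD4 by 1.78 ± 0.06, the last pair being partners of the immune regulator EDS1. The synthesis enzyme EDS16 (−0.12 ± 0.10) and the late marker PR1 (1.72 ± 1.49) were not called, both picked after their values were seen. In tryptophan, indole glucosinolate and camalexin synthesis, 6 of 20 genes rose and 4 fell (median −0.01), with falls close to the share of all genes. CYP81F2, a P450 that modifies indole glucosinolates, had 34.2, 40.8 and 37.4 CPM in bdg-8 ATP libraries, against 6.71, 6.67 and 7.1 CPM in bdg-8 mock libraries (2.45 ± 0.09 log2). IGMT2, the methyltransferase that follows it, changed by 2.34 ± 0.16 and UGT74B1, a glucosyltransferase of the core pathway, by −0.56 ± 0.07. CYP71A13, of camalexin synthesis, had 1 read over the bdg-8 ATP libraries and 57 over the bdg-8 mock libraries, a mock over ATP ratio of 58 with a 95% exact counting interval of 10 to 2330.

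Cutin and wax genes were called in both directions, and their medians lay near that of all genes tested (−0.02). Of 18 tested cutin genes (19 listed), 5 rose, BDG1 included, and 3 fell (5 and 1 without replicate 3), with a median of −0.08 log2, beside 18.7% higher and 17.7% lower among all genes. CYP86A4, a fatty acid hydroxylase of cutin monomers, had 18.3, 15.8 and 15.4 CPM in bdg-8 ATP libraries, against 8.65, 8.55 and 9.29 CPM in bdg-8 mock libraries (0.91 ± 0.08 log2). The groups did not overlap, and the change was larger than in Col-0 by 0.60 ± 0.11 (edgeR adjusted p = 0.00091, and 0.04 without replicate 3). CYP86A2, a related hydroxylase, changed by 0.38 ± 0.04 and ABCG11, a transporter of cutin and wax lipids, by −0.32 ± 0.04. AT1G15490, an α/β-hydrolase, changed by −0.28 ± 0.08 and was not called without replicate 3. In wax synthesis and export, 2 of 13 tested genes rose and 5 fell (2 and 3 without replicate 3, median −0.08). KCS1, a fatty acid elongase, had 163, 165 and 157 CPM in bdg-8 ATP libraries, against 71.3, 79.4 and 75.3 CPM in bdg-8 mock libraries (1.10 ± 0.06 log2). KCS6, the elongase of shoot wax, had 221, 232 and 234 CPM in bdg-8 ATP libraries, against 270, 311 and 298 CPM in bdg-8 mock libraries (−0.36 ± 0.05 log2). WSD1, a wax ester synthase, changed by −1.09 ± 0.40 at under 1 CPM and was not called without replicate 3.

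Regulators of cuticle genes moved both ways, with 4 of 8 tested genes higher and 1 lower (11 listed, median 0.28). The shares among all genes were 18.7% higher and 17.7% lower. MYB96, an activator of wax synthesis under drought, had 36.1, 32.7 and 37.1 CPM in bdg-8 ATP libraries, against 11, 12.1 and 11.5 CPM in bdg-8 mock libraries (1.62 ± 0.07 log2). Its response exceeded that of Col-0 by 0.80 ± 0.10 (edgeR adjusted p = 4.4e-06, and 0.014 without replicate 3). MYB16, a regulator of cutin and epidermal cell shape, had 4.51, 4.37 and 3.94 CPM in bdg-8 ATP libraries, against 7.55, 9.21 and 7.86 CPM in bdg-8 mock libraries (−0.94 ± 0.13 log2), while Col-0 gave 0.03 ± 0.10. In p2k1-3 bdg-8, MYB96 changed by 1.43 ± 0.07 and MYB16 by −0.84 ± 0.12, with no called difference from bdg-8. Of the markers of the epidermis, 3 of 4 fell (2 without replicate 3), beside 17.7% lower among all genes. Their summed level was 352.4 to 363.8 CPM in bdg-8 ATP libraries and 406 to 456.7 CPM in bdg-8 mock libraries, with no marker at 0. The marker CER5, listed as ABCG12, is also a member of the wax list (−0.41 ± 0.05 log2). The markers are therefore not a measure independent of the cuticle genes. The part of the markers in the cuticle results was not tested. In whole seedlings, fewer cells of a type and less RNA per cell cannot be told apart. Genes of extracellular nucleotide turnover gave small values, with 4 of 13 higher and 2 lower but 1 and 1 without replicate 3 (median 0.09, and −0.04 with upper-quartile factors). The apyrases APY1 (0.14 ± 0.05) and APY2 (0.14 ± 0.04) were called with all replicates only.

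Expansins and xyloglucan enzymes, which both act on the growing wall, moved in opposite directions. None of 17 tested α-expansins (24 listed) rose and 11 fell (10 without replicate 3), beside 18.7% higher and 17.7% lower among all genes. Their median was −0.45 log2. After EXPA1, the largest falls were EXPA8 (−1.70 ± 0.18), EXPA10 (−1.35 ± 0.07) and EXPA14 (−1.05 ± 0.14). EXPA10 had 20.3, 16.4 and 16.7 CPM in bdg-8 ATP libraries, against 43.6, 47.5 and 45.3 CPM in bdg-8 mock libraries, and its fall exceeded that of Col-0 (difference −0.79 ± 0.10 log2, edgeR adjusted p = 4e-06, and 0.014 without replicate 3). Xyloglucan endotransglucosylases, which cut and rejoin wall polymers, went the other way, with 15 of 29 tested genes higher and 4 lower (33 listed, median 0.27). TCH4, the touch-induced XTH22, had 918, 872 and 902 CPM in bdg-8 ATP libraries, against 28.9, 22.3 and 23.4 CPM in bdg-8 mock libraries (5.17 ± 0.11 log2). XTR6 changed by 4.99 ± 0.12, XTH18 by 3.76 ± 0.06 and XTH19 by 2.38 ± 0.09. The TCH4 response was larger than in Col-0 by 1.49 ± 0.14 log2 (edgeR adjusted p = 9.3e-08, and 0.0061 without replicate 3).

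SAUR genes, small auxin-induced genes tied to cell expansion, formed the list with the lowest median, −0.83 log2. Of 60 tested (80 listed), 33 fell and 8 rose (28 and 7 without replicate 3), and 20 fell at least 2-fold. Counts in this paragraph stand beside 18.7% higher and 17.7% lower among all genes, with 1.72% lower by at least 2-fold. AT4G38860 had 5.97, 8.36 and 7.07 CPM in bdg-8 ATP libraries, against 24, 31.3 and 27.9 CPM in bdg-8 mock libraries. AT3G09870 rose from this family, with 7.27, 6.01 and 5.95 CPM in bdg-8 ATP libraries, against 0.129, 0.0695 and 0.0348 CPM in bdg-8 mock libraries (6.27 ± 0.34 log2). The response was called more negative than in Col-0 for 11 SAUR genes and more positive for 2, beside 2.15% and 5.76% of all genes. SAUR genes sit in clusters of near-identical copies and reads may have been split among them, so single members are uncertain. The Aux/IAA names, which include the auxin response factors NPH4, ARF19 and MP through older names, had 8 of 29 tested genes higher and 7 lower (median −0.04), led by IAA2 (1.41 ± 0.06). The split was 6 and 2 without replicate 3, and 6 and 14 with upper-quartile factors. Plasma membrane aquaporins fell in 6 of 13 genes and rose in none (3 fell without replicate 3, median −0.13), with PIP2A at −0.47 ± 0.07.

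Light, brassinosteroid, gibberellin and cytokinin genes had more falls than rises, beside 17.7% lower and 18.7% higher among all genes. Of 15 light and shade genes, 8 fell and 3 rose (median −0.26), and after PKS4 the largest falls were PIL1, a shade-induced factor (−1.58 ± 0.24), HB4, a homeobox factor of shade response (−1.04 ± 0.27, not called without replicate 3), and PKS1 (−0.93 ± 0.11). In brassinosteroid and gibberellin genes, 7 of 13 fell and 3 rose (median −0.44). BR6OX2, of brassinosteroid synthesis, had 4.87, 6.16 and 6.14 CPM in bdg-8 ATP libraries, against 16.1, 19.2 and 17.2 CPM in bdg-8 mock libraries (−1.62 ± 0.09 log2), and GA20OX1, of gibberellin synthesis, changed by −1.84 ± 0.29. EXO, a brassinosteroid-induced growth gene, rose instead. It had 764, 692 and 728 CPM in bdg-8 ATP libraries, against 51.1, 39.6 and 45.2 CPM in bdg-8 mock libraries (4.01 ± 0.09 log2). Type A response regulators, the feedback repressors of cytokinin, fell in 5 of 10 genes, with 5 falls also without replicate 3 (median −0.36). RR17, the member that rose, rested on 27 reads in the bdg-8 ATP libraries and 3 in the bdg-8 mock libraries, a ratio of 8.84 with a 95% exact counting interval of 2.72 to 45.6. RR3 had 11.7, 12 and 12.3 CPM in bdg-8 ATP libraries, against 36.3, 37.5 and 34.4 CPM in bdg-8 mock libraries (−1.59 ± 0.05 log2). The response of 4 of these regulators was called more negative than in Col-0, beside 2.15% of all genes. ARR9 was among them (difference −0.72 ± 0.08 log2, edgeR adjusted p = 1.6e-06, and 0.0021 without replicate 3).

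Other lists held calls in both directions, to be read beside the 18.7% of all genes that rose and the 17.7% that fell. Of 16 abscisic acid, cold and dehydration genes, 6 rose and 1 fell (4 and 1 without replicate 3, median 0.16), led upward by PP2CA, a phosphatase of abscisic acid signalling, and ERD10, a dehydrin (0.94 ± 0.04). PP2CA had 47.8, 41 and 42.1 CPM in bdg-8 ATP libraries, against 19.6, 24.2 and 22 CPM in bdg-8 mock libraries. Of 16 phosphate starvation genes, 5 fell and 1 rose (3 and 1 without replicate 3, median −0.20), with G3Pp1, a glycerol-3-phosphate transporter, at −1.45 ± 0.12 and AT1G73010, an inorganic pyrophosphatase, at 2.16 ± 0.23. In the circadian clock, 4 of 13 genes rose and 6 fell (3 and 5 without replicate 3, median −0.25). TOC1, an evening gene, changed by 1.11 ± 0.06, and the morning genes PRR9, LHY and CCA1 by −1.46 ± 0.10, −0.93 ± 0.15 and −0.81 ± 0.14. Of 5 tested genes of mitochondrial stress, 2 rose (median −0.20). BCS1, an AAA-type ATPase of mitochondria, had 234, 183 and 213 CPM in bdg-8 ATP libraries, against 13.5, 9.21 and 12.4 CPM in bdg-8 mock libraries (4.16 ± 0.10 log2). Of 6 heat shock genes, 1 rose and 1 fell (median 0.25), the rise being HSFA2, a heat shock factor (1.92 ± 0.18). Light-harvesting genes fell in 5 of 19 tested cases and in none without replicate 3 (median −0.08).

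To compare the response in bdg-8 with the one in Col-0, the difference of the log2 fold changes was tested, with no library on both sides. It was called for 1660 genes (7.91%), more positive in bdg-8 for 1209 (5.76%) and more negative for 451 (2.15%). Without replicate 3 there were 458 (2.18%), with 405 more positive (1.93%) and 53 more negative (0.252%), and 456 of them were among the 1660. Fits without replicate 1 and without replicate 2 gave 2168 and 1253 calls. Both keep replicate 3 and take it as independent, so they are not checks of the same kind. By itself, bdg-8 had 1254 rises of at least 2-fold, against 785 in Col-0 (3.74%), and 361 falls of that size, against 120 in Col-0 (0.572%). In all, 4585 genes were called in Col-0 (21.8%), with 2765 higher (13.2%) and 1820 lower (8.67%). Differences of at least 2-fold were called more positive for 120 genes (0.572%) and more negative for 70 (0.333%).

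After BDG1 and JAZ7, the largest positive differences included a sugar transporter and the receptor kinase FRK1. SWEET10, a sugar transporter, had 3.44, 4.52 and 4.2 CPM in bdg-8 ATP libraries, against 1.23, 0.869 and 0.974 CPM in bdg-8 mock libraries (1.97 ± 0.23 log2). In Col-0 its change was −0.08 ± 0.29, a difference of 2.05 ± 0.38 (edgeR adjusted p = 0.00064, and 0.076 without replicate 3). AT1G22890, uncharacterized, differed by 1.84 ± 0.25 and kept its call without replicate 3 (edgeR adjusted p = 0.02). Its mean with ATP was 6.13 CPM in bdg-8 and 6.31 CPM in Col-0, while with mock it was 1.18 and 4.33 CPM. AT4G27657 differed by 1.88 ± 0.41, AT3G55840 by 1.83 ± 0.46 and AT2G17740 by 1.81 ± 0.46, and these 3 lost the call without replicate 3 (edgeR adjusted p of 0.19, 0.051 and 0.24). Above the expression minimum, the largest negative differences after TAT3 were AT2G14247 (−3.18 ± 0.90), FAMT (−2.90 ± 0.45), AT5G24200 (−2.51 ± 0.47), PKS4 (−2.25 ± 0.41), AT1G56650 (−1.95 ± 0.37), ARR15 (−1.86 ± 0.27) and AIG1 (−1.85 ± 0.56). AT1G56650, an activator of anthocyanin synthesis, had 1.75, 0.798 and 1.6 CPM in bdg-8 ATP libraries, against 5.07, 3.96 and 4.35 CPM in bdg-8 mock libraries (−1.67 ± 0.24 log2), and 0.28 ± 0.27 log2 in Col-0. Of these 7 differences, ARR15 alone kept its call without replicate 3 (adjusted p = 0.017 in edgeR). A difference of responses can lie in the mock level. AT5G24200 had means of 10.1 CPM (bdg-8) and 1.43 CPM (Col-0) with mock, and 1.92 and 1.55 CPM with ATP. AIG1 had 15.3 and 2.72 CPM with mock, and 3.82 and 2.46 CPM with ATP. These examples were picked after their values were seen, and levels were not tested between the genotypes.

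In 8 genes ATP was called in opposite directions in bdg-8 and Col-0, each with a called difference. ARR15, a type A cytokinin response regulator, had 0.747, 0.874 and 0.818 CPM in bdg-8 ATP libraries, against 2, 1.63 and 2.09 CPM in bdg-8 mock libraries (−1.23 ± 0.21 log2), while it rose by 0.63 ± 0.16 in Col-0. AT2G31480 (difference −2.48 ± 0.52), AT3G48390 (−1.64 ± 0.30) and GSTF12, a glutathione transferase of anthocyanin transport (−0.82 ± 0.19), also fell in bdg-8 and rose in Col-0. AT2G31480 and AT3G48390 lay below the expression minimum used for naming elsewhere, with a mean log2 CPM of −1.41 and −0.07. AT2G24100 (0.55 ± 0.12) and AT1G28390, a protein kinase family member (0.47 ± 0.11), rose in bdg-8 and fell in Col-0. Without replicate 3, of these 6 genes ARR15 and AT1G28390 kept a called difference. The change in bdg-8 itself kept its call without replicate 3 for ARR15 and AT3G48390 only.

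The bdg-8 response was set against that of p2k1-3 bdg-8 in the same way. The p2k1-3 bdg-8 response had 7070 calls (33.7%), with 3598 higher (17.1%) and 3472 lower (16.5%), and changes of at least 2-fold were 1148 rises (5.47%) and 281 falls (1.34%). Its difference from the bdg-8 response was called for 134 genes (0.638%), more positive in bdg-8 for 102 (0.486%) and more negative for 32 (0.152%), of which 16 (0.0762%) and 14 (0.0667%) were at least 2-fold. Without replicate 3 there were 2 calls (0.00953%), both more positive in bdg-8 and both among the 134. Fits without replicate 1 and without replicate 2, which keep replicate 3, gave 413 and 111 calls. At an unadjusted p under 0.05 there were 2245. The largest positive difference was AT1G76640, a calcium-binding EF-hand protein. It changed by 5.43 ± 0.20 log2 in bdg-8, with 16, 20.8 and 19.3 CPM in ATP libraries against 0.452, 0.208 and 0.626 CPM in mock libraries, and by 1.93 ± 0.30 in p2k1-3 bdg-8 (difference 3.50 ± 0.47, edgeR adjusted p = 0.00049, and 0.15 without replicate 3). ERF13 differed by 1.51 ± 0.34, AT5G19110, an aspartyl protease family member, by 1.51 ± 0.22, AT5G35940, a mannose-binding lectin, by 1.47 ± 0.31, and GH3.1, an auxin-conjugating enzyme family member, by 1.31 ± 0.24. The remaining genes were AT2G34350 (1.36 ± 0.31), AT4G37850 (1.36 ± 0.27) and AT3G19200 (1.31 ± 0.27). PROPEP4 (1.04 ± 0.21) and PROPEP3 (1.40 ± 0.31) were the danger peptide precursors with a called difference, which neither kept without replicate 3 (edgeR adjusted p of 0.68 for PROPEP4 and 1 for PROPEP3).

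The largest negative difference from p2k1-3 bdg-8 was that of NATA1. NATA1, which acetylates ornithine, had 2.05, 1.18 and 1.56 CPM in bdg-8 ATP libraries, against 2.16, 2.05 and 1.77 CPM in bdg-8 mock libraries. It was not called in bdg-8 (−0.31 ± 0.45 log2) and rose by 3.11 ± 0.37 in p2k1-3 bdg-8, a difference of −3.42 ± 0.59 (edgeR adjusted p = 0.0061, and 0.97 without replicate 3). AIG1 (−2.83 ± 0.48), AT5G24200 (−2.38 ± 0.39) and PBS3, an enzyme of salicylic acid synthesis (−2.38 ± 0.43), followed. The others were VSP2, a vegetative storage protein (−1.45 ± 0.33), AT5G38930 (−1.37 ± 0.25), SMB, a NAC factor of the root cap (−1.30 ± 0.21), and OSM34, an osmotin (−1.26 ± 0.21). OSM34 had 48.5, 47.8 and 47.3 CPM in bdg-8 ATP libraries, against 40.2, 51.5 and 48.5 CPM in bdg-8 mock libraries, so these groups overlapped, while in p2k1-3 bdg-8 it had 43.5, 64.1 and 56.7 CPM with ATP and 22.7, 21.4 and 22.6 CPM with mock.

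**Figure D5:**
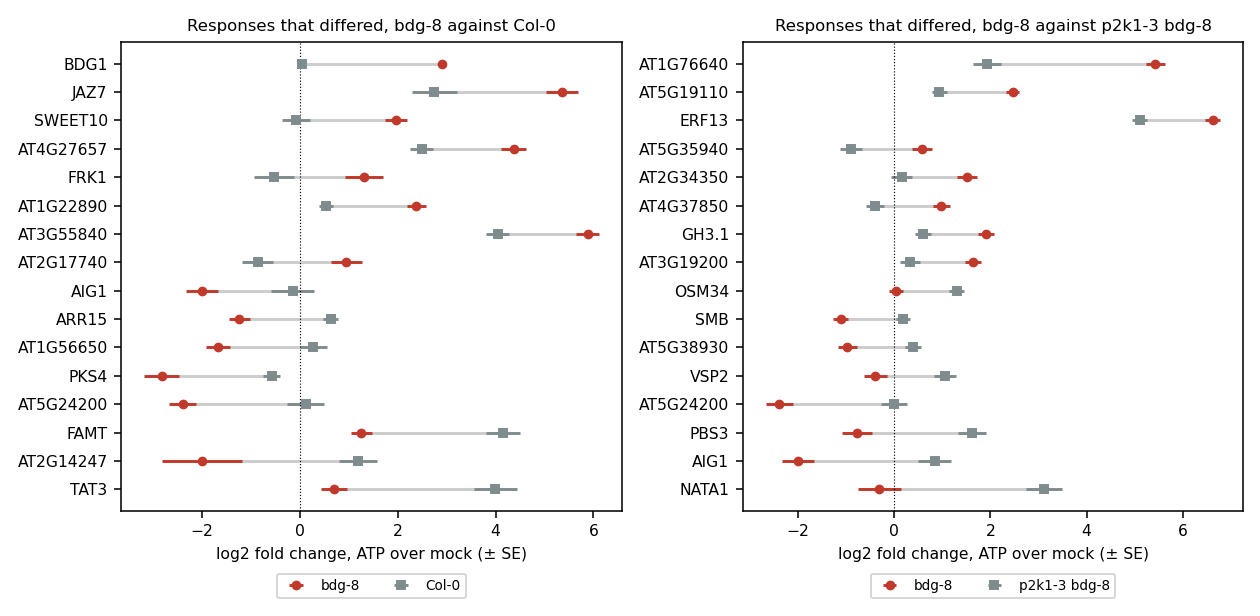
Log2 fold change (ATP over mock, ± SE, n = 3 libraries per group) of the genes with the largest called differences in response, bdg-8 (red circles) against Col-0 (left, grey squares) and against p2k1-3 bdg-8 (right, grey squares). For BDG1 the values are 2.91 (bdg-8) and 0.04 (Col-0), and for NATA1 −0.31 (bdg-8) and 3.11 (p2k1-3 bdg-8).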

How the data were processed

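Gene counts were deposited by the authors as HTSeq counts, 1 table per library, with 33245 genes. Per the submitters' processing notes, cutadapt 1.13, MultiQC 1.9, STAR 2.7.4a and HTSeq 0.13.5 were used; their settings, the build, the annotation and strand use are not given in the sources used here. HTSeq summary entries (7.6 to 12.17% of entries per library) entered neither the library sizes nor any test. The 24 libraries held 25856588 to 35239775 counts in genes.

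The counts were analysed with edgeR 4.0.16 in R 4.3.3: filterByExpr by group (20995 genes kept), TMM factors, and a quasi-likelihood test on all 24 libraries with 1 mean per group and 16 residual degrees of freedom. Calls are at a Benjamini-Hochberg adjusted p under 0.05 over all genes tested. SE is the log2 fold change divided by the square root of F, and CPM are TMM-normalized. This SE is too small for large changes of genes with few reads in 1 group. Differences of responses are interaction contrasts. DESeq2 1.42.0, upper-quartile factors, no filter, fewer libraries, a replicate block and leaving out replicates were the alternatives. The script was tested on simulated data. Exact binomial intervals (95%) and the floor of 3 reads cover counting error only.

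Named were BDG1 and P2K1, the 15 largest rises and falls (called, with a mean log2 CPM over 1 and groups that do not overlap), up to 6 called members per list by absolute change, the 8 largest differences each way, and 6 genes called oppositely in bdg-8 and Col-0. Members outside this rule (ANNAT4, PBL1, MPK4, MPK6, DREB1A, ORA59, CRK1, AT2G46700, LOX2, EDS16, PR1 and the neighbours of BDG1, for example) were named after their values were seen. The gene groups and lists were chosen with earlier results of these data known. Promoters come from RefSeq TAIR10.1, which holds 33056 of the 33245 identifiers.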

Additional observations from a re-analysis of the deposited data

Results flagged for a closer look

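The results below were singled out because a test of the difference found that ATP responses differed between genotypes. All values are differences of log2 fold changes.

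Between bdg-8 and Col-0, 1660 genes differed. More positive in bdg-8 were BDG1 (2.88), JAZ7 (2.61), SWEET10 (2.05), AT4G27657 (1.88), FRK1 (1.85), AT1G22890 (1.84), AT3G55840 (1.83) and AT2G17740 (1.81). More negative in bdg-8 were TAT3 (−3.30), AT2G14247 (−3.18), FAMT (−2.90), AT5G24200 (−2.51), PKS4 (−2.25), AT1G56650 (−1.95), ARR15 (−1.86) and AIG1 (−1.85). Opposite calls in bdg-8 and Col-0 further singled out AT2G31480 (−2.48), AT3G48390 (−1.64), GSTF12 (−0.82), AT2G24100 (0.55) and AT1G28390 (0.47). Without replicate 3, 458 genes were called, and 17 of these 21 named differences lost the call. BDG1, AT1G22890, ARR15 and AT1G28390 kept it.

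Between bdg-8 and p2k1-3 bdg-8, 134 genes differed. More positive in bdg-8 were AT1G76640 (3.50), AT5G19110 (1.51), ERF13 (1.51), AT5G35940 (1.47), AT2G34350 (1.36), AT4G37850 (1.36), GH3.1 (1.31) and AT3G19200 (1.31). More negative in bdg-8 were NATA1 (−3.42), AIG1 (−2.83), PBS3 (−2.38), AT5G24200 (−2.38), VSP2 (−1.45), AT5G38930 (−1.37), SMB (−1.30) and OSM34 (−1.26). None of these 16 differences kept its call without replicate 3.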

How the results depend on the processing

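For the ATP response in bdg-8 (7631 called, 3916 higher, 3715 lower), upper-quartile factors gave 11851, 2928 and 8923, and APT1 (0.10 log2) turned to −0.02. Leaving out replicates gave 4852 to 7138 called, 2877 to 3804 higher and 1975 to 3375 lower, lowest without replicate 3 of every group in each case. For the difference from Col-0 (1660, 1209 and 451), upper-quartile factors gave 829 lower, and leaving out replicates gave 458 to 2168, 405 to 1365 and 53 to 803. For the difference from p2k1-3 bdg-8 (134, 102 and 32), DESeq2 gave 225, 174 and 51, fitting only the genotypes compared gave 71 lower, the replicate block gave 158 higher, and leaving out replicates gave 2 to 413, 2 to 269 and 0 to 144. The causes were not tested. The labels give every group replicate numbers 1 to 3. Deviations of same-numbered bdg-8 ATP and mock libraries correlated at 0.05 to 0.08. Between bdg-8 and p2k1-3 bdg-8 the values were 0.15, 0.13 and 0.06 with ATP and 0.26, 0.22 and 0.01 with mock, and between bdg-8 and Col-0 none was above 0.11. Not every pair of any set exceeded 0.1, but this cannot decide whether the numbers are pairs. Replicate 3 lay between replicates 1 and 2 in every group, so a low correlation for it carries little information. The main fit leaves pairing out. With a replicate block there were 7963 called (4030 higher, 3933 lower), 1834 (1311 and 523) and 199 (158 and 41). Of 208 named genes of the ATP response, the call and direction held in 2796 gene and setting pairs, 110 lost the call and 1 reversed. For the differences, 250 held and 44 lost the call against Col-0 (21 genes), and 185 held and 39 lost it against p2k1-3 bdg-8 (16 genes). These totals pool settings that mostly keep replicate 3. Without replicate 3 of every group, 30 of the 208 genes of the ATP response lost the call. So did 17 of the 21 differences from Col-0 and all 16 from p2k1-3 bdg-8.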

Other observations

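Some listed genes had a count of 0 in all 24 libraries. These were the jasmonate activator MYC2, the ERF gene AT5G51190, the cutin hydroxylase CYP77A4, WRKY64, the expansins EXPA21 to EXPA25, XTH1, the SAUR genes SAUR63, AT3G43120, AT3G51200 and AT5G03310, CML30, the cysteine-rich receptor kinases RKF2 and CRK33, and the light-harvesting gene LHB1B2. MYC2, AT5G51190 and LHB1B2 belong to families whose other members were well counted here, and a count of 0 in every library was reported as listed, with no reading of expression drawn from it.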
